A study of Rattus norvegicus with 9 samples.

Results

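The 10 genes described here encode the core of the circadian clock: Arntl (also called Bmal1), Clock, Per1, Per2, Per3, Cry1, Cry2, Nr1d1, Nr1d2 and the output factor Dbp. They were taken by symbol, ignoring case, from a deposited table of FPKM values (fragment counts scaled for transcript length and library size) for 26401 genes. Each symbol matched 1 gene: Arntl ENSRNOG00000014448, Clock ENSRNOG00000002175, Per1 ENSRNOG00000007387, Per2 ENSRNOG00000020254, Per3 ENSRNOG00000018413, Cry1 ENSRNOG00000006622, Cry2 ENSRNOG00000007478, Nr1d1 ENSRNOG00000009329, Nr1d2 ENSRNOG00000046912 and Dbp ENSRNOG00000021027. All 10 were among the 11376 genes that averaged 1 FPKM or more across the 9 libraries, which were the genes tested. The cells were S31 cells, primary vascular smooth muscle cells from the cardiac microvessels of male Wistar Kyoto rats, wild type, starved of serum for 48 h and then kept without serum in medium with lactalbumin hydrolysate. The control set, whose columns are named LH-NS, received no growth factor and was harvested at 24 h. The other sets received a growth factor at 25 ng/ml, renewed every 24 h, and their columns are named IGF-NS and PDGF-NS. Each set had 3 libraries.

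The sample records disagree with the column names on which growth factor the treated sets received. The records that point to the IGF-NS columns are titled PDGF-BB and give 48 h, and those that point to the PDGF-NS columns are titled IGF-1 and give 24 h. The sets are therefore called by their column names throughout, and no growth factor is assigned to them. By the records the IGF-NS set was harvested at 48 h, and the control and PDGF-NS sets at 24 h. Treatment and time therefore cannot be told apart in IGF-NS against control or in PDGF-NS against IGF-NS. Each set had 1 harvest time, so a change in the level of a rhythmic transcript and a shift of its phase cannot be told apart in any comparison. The labels do not say that the libraries of a set came from separate cultures. The p-values compare the set differences with the spread within sets, and that spread may be only technical.

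As background, CLOCK and BMAL1 (the product of Arntl) pair and bind E-box sequences, from which they drive the Per, Cry and Nr1d genes and Dbp. PER and CRY proteins return to repress CLOCK and BMAL1, which closes the main loop. The nuclear receptors REV-ERBα and REV-ERBβ, encoded by Nr1d1 and Nr1d2, repress Arntl through elements they share with the activating ROR receptors. DBP activates genes through D-boxes, and vascular smooth muscle is among the tissues with a clock of its own.

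The promoter windows of the members and of other clock network genes were searched for the sequences these factors are known to bind. Of these, 5 windows are shown as examples, and matches in windows not shown follow below. Windows ran from 250 bases before to 50 bases after a RefSeq start site in build GRCr8, and 9 of the 10 members had at least 1. Both strands were searched for the E-box CACGTG, the related E-prime box CACGTT, the D-box TTATGNAA, the ROR/REV-ERB element ANTNGGTCA, the CRE TGACGTCA and the shorter CRE core TGACG, which lies within the CRE. Capitals mark the matches other than the shorter CRE core, which Per2 holds at position 39 in lower case. Arntl is listed as Bmal1 in RefSeq. Ciart and Tef, a repressor and a D-box activator of the clock network, are shown beside the members.
Arntl (chr1:176766078-176766377, plus strand): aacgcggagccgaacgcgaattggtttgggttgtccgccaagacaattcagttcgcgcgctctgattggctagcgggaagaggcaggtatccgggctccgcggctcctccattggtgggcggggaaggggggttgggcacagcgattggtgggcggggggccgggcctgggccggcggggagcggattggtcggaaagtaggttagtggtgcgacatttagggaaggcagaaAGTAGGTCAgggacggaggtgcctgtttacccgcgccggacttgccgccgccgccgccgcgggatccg
Nr1d1, the second of its windows (chr10:84229405-84229704, minus strand): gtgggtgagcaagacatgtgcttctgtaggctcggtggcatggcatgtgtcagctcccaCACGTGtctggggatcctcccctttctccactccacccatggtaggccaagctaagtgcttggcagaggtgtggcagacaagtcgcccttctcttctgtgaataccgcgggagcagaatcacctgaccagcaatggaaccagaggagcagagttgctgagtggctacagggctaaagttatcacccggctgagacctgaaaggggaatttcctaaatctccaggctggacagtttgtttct
Per2 (chr9:99496944-99497243, minus strand): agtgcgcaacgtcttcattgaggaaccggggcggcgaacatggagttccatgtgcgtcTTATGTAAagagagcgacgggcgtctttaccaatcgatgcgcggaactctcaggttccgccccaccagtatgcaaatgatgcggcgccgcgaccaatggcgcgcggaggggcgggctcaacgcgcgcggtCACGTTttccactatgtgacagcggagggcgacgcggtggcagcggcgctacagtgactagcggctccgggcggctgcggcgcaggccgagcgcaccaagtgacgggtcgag
Ciart (chr2:186112197-186112496, minus strand): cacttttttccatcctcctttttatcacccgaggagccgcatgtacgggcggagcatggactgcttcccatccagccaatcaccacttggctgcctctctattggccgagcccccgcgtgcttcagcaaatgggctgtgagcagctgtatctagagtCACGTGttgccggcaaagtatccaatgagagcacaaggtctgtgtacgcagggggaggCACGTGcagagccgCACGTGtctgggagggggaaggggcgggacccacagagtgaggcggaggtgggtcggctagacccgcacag
Tef (chr7:115206577-115206876, plus strand): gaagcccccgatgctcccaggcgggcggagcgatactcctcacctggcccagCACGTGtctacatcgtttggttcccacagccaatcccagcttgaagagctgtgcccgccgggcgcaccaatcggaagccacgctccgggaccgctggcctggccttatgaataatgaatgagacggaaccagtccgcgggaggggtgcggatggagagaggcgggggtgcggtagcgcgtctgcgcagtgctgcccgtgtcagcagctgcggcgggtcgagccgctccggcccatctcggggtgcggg

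The Arntl window held AGTAGGTCA, a ROR/REV-ERB element, starting at position -18 from the start site; 2.49% of the 33469 RefSeq windows held such an element. In the Per2 window an E-prime box lay at -62 and the D-box TTATGTAA at -192, motifs held by 4.83% and 3.66% of windows. The second Nr1d1 window held an E-box at -191, and 6.42% of windows held one. Ciart held 3 E-boxes, at -93, -35 and -21, and Tef held 1 at -198. Among searched genes outside the members whose windows are not shown, Bhlhe40 and Bhlhe41 held an E-box, at -220 and -48. Arntl2 held an E-prime box at -168, Timeless a ROR/REV-ERB element at -156 and Nfil3 the shorter CRE core at -9. Cry2 and the first Nr1d1 window had an E-prime box, and Per2, Per3 and Nr1d2 had the shorter CRE core, present in 21.2% of windows. None of these motifs was found in the windows of Dbp, Clock or Per1, so the Dbp window held neither an E-box nor an E-prime box. No member window held the full CRE, which was in 1.83% of windows. A match describes these letters only, and no binding was measured here.

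Over all genes tested, limma (Benjamini-Hochberg adjusted p under 0.05) called 1976 genes higher and 851 lower in IGF-NS against control, 2355 higher and 1166 lower in PDGF-NS against control, and 948 higher and 859 lower in PDGF-NS against IGF-NS. Scaling by the median ratio changed these splits to 1144 higher and 1220 lower for IGF-NS and 1754 higher and 1685 lower for PDGF-NS, each against control. Quantile scaling gave 1214 higher and 1171 lower, and 1692 higher and 1752 lower, for the same comparisons. One common sum gave 1698 higher and 1678 lower in PDGF-NS against control, and 737 higher and 1480 lower in PDGF-NS against IGF-NS. The median log2 difference of all genes was 0.15 and 0.13 for IGF-NS and PDGF-NS against control, and -0.02 between the treated sets. Median-ratio scaling, which centres the libraries, gave medians of 0.01, 0.01 and 0, and a common sum gave 0.14, 0 and -0.14. Whether these medians reflect scaling or expression was not tested.

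The sets also differed in markers of cell state. Of 6 smooth muscle markers tested, 4 fell in IGF-NS and 5 in PDGF-NS against control, and 0 were called higher. The IGF-NS libraries all lay below control for 4 of the 6, but all above control for 1. The PDGF-NS libraries all lay below control for 6. Over all genes tested, 39.0% and 48.6% showed no overlap in these comparisons. The defining marker Myh11 was at 1.38, 1.31 and 2.6 FPKM in control and below 1 in every treated library. The summed level of 7 smooth muscle markers was 2310 to 3300 FPKM in control libraries, 503 to 528 in the IGF-NS libraries and 279 to 348 in those of PDGF-NS. Of 12 cell cycle markers, 6 were called higher and 1 lower in IGF-NS against control, 0 higher and 2 lower in PDGF-NS against control, and 0 higher and 8 lower in PDGF-NS against IGF-NS. Across all genes tested, the shares called higher and lower were 17.4% and 7.48%, 20.7% and 10.2%, and 8.33% and 7.55% in the same order. The 6 endothelial markers summed to at most 0.788 FPKM in any library, with Cdh5 listed at 0 in all 9. The 5 macrophage and leukocyte markers summed to 17.6 to 27 FPKM in the control libraries, 22.6 to 30.8 in those of IGF-NS and 43.6 to 89.5 in those of PDGF-NS, with Ptprc and Adgre1 listed at 0 in all 9. The 5 fibroblast markers summed to 2740 to 3980, 4770 to 6120 and 2760 to 3370 FPKM in the same order, mostly from Col1a1 (a mean of 2880 FPKM in control). Of the 4 fibroblast markers tested, Dcn, Lum and Pdgfra were called higher in both treated sets (log2 3.33, 2.41 and 0.85 for IGF-NS against log2 0.95, 1.63 and 1.22 for PDGF-NS) and 0 were lower. Pericyte markers summed to 57.8 to 79, 81.1 to 96.7 and 146 to 163 FPKM, cardiomyocyte markers to 10.6 to 23.2, 8.66 to 19.1 and 1.96 to 4.88, and Schwann markers to at most 0.074. Libraries of 1 set correlated at r from 0.959 to 0.983 across genes, and at most 0.947 with other sets. The first PDGF-NS library stood apart for some stimulus-responsive genes, such as Nr4a1 (16 FPKM against 69.7 and 80.7 in the rest of its set) and Crem (7.64 against 22.1 and 14.9). The part of these differences in the clock gene values was not tested, and fewer cells of a type and less RNA per cell cannot be told apart in bulk RNA.

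In IGF-NS against control, 4 clock genes rose (Per3, Nr1d1, Nr1d2 and Dbp), 1 fell (Arntl) and 5 did not pass the test. Across all genes tested, 17.4% were called higher and 7.48% lower. The libraries of both sets did not overlap for 6 clock genes, 4 higher and 2 lower, and did not overlap for 39.0% of all genes. In PDGF-NS against control, 3 clock genes rose (Nr1d1, Nr1d2 and Dbp), 2 fell (Arntl and Cry1) and 5 did not pass, where 20.7% of all genes were called higher and 10.2% lower. For 3 clock genes the PDGF-NS libraries all lay above the control and for 3 all below, while 48.6% of all genes showed no overlap. Between the treated sets, 0 clock genes were higher and 2 (Per2 and Per3) were lower in PDGF-NS, where 8.33% of all genes were called higher and 7.55% lower. For 5 clock genes the libraries did not overlap between the treated sets, 2 higher and 3 lower in PDGF-NS, against 36.3% of all genes. The median log2 difference of the 10 genes was 0.13, -0.05 and 0.07 in these comparisons. The comparisons with control share the control libraries, so they are not independent of each other. Without the first PDGF-NS library the clock genes called were 6, 4 and 1 in the same order.

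**Figure D1:**
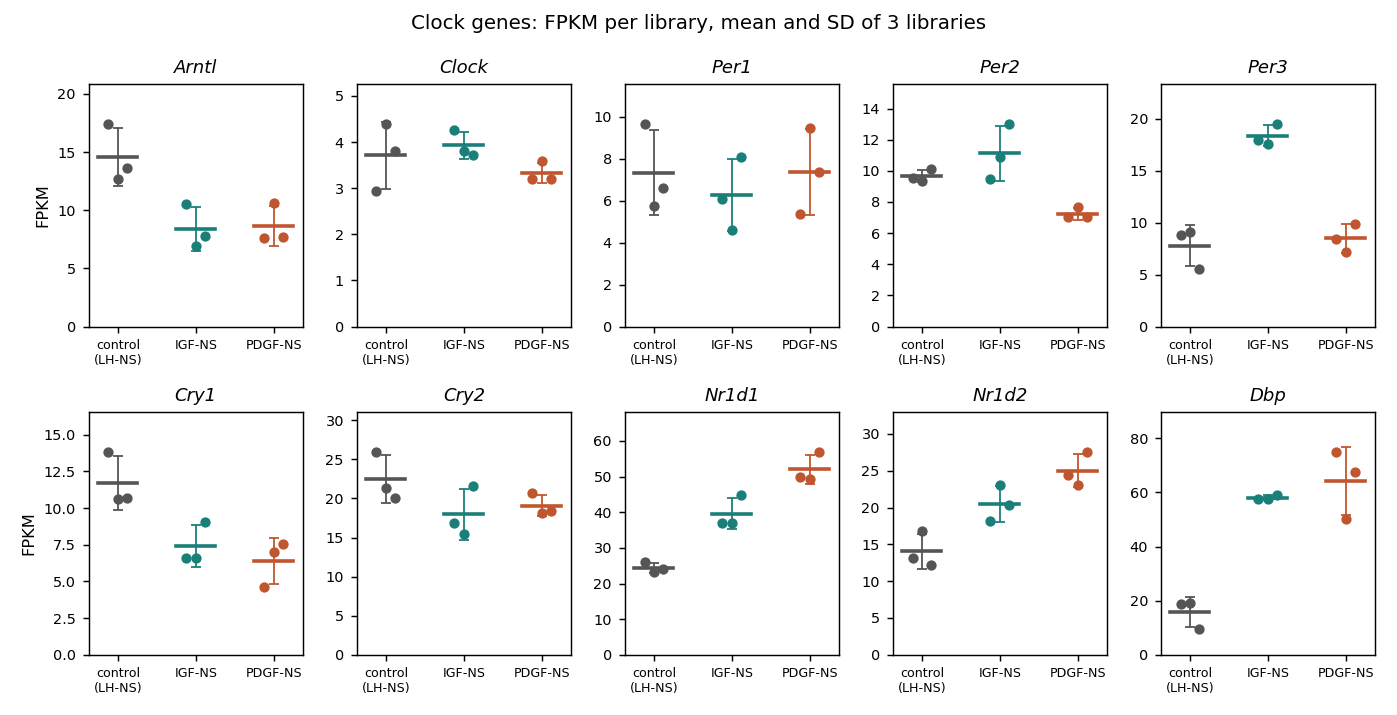
FPKM of each of the 10 clock genes in the 3 control (LH-NS), 3 IGF-NS and 3 PDGF-NS libraries, 1 point per library with the set mean (line) and SD (bar). Dbp lay at 9.55 to 19.3 FPKM in control and at 50.1 or more in every treated library, while Clock stayed between 2.95 and 4.39 in all 9.

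Dbp, an activator of D-box genes and a direct target of CLOCK and BMAL1, had the largest change of the members. Its control libraries gave 18.7, 19.3 and 9.55 FPKM, the IGF-NS libraries 57.5, 57.6 and 59 FPKM, and the PDGF-NS libraries 74.8, 50.1 and 67.7 FPKM. Every treated library lay above every control library, and the treated sets overlapped. Dbp rose from 15.8 ± 5.45 FPKM (SD, n = 3) in control to 58 ± 0.828 in IGF-NS, a log2 difference of 1.87 ± 0.24 (SE, adjusted p = 0.00067). In PDGF-NS it rose to 64.2 ± 12.7 FPKM, a log2 difference of 1.99 ± 0.24 (adjusted p = 0.00023). Between the treated sets the log2 difference of Dbp was 0.12, with a 95% interval from -0.42 to 0.66 (adjusted p = 0.79). All log2 differences here are on the log2(FPKM + 1) scale, which understates the change of low genes.

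Tef, which encodes another D-box activator of the same PAR bZIP family, also rose in both treated sets. It measured 21.1, 21.6 and 18 FPKM in the control libraries, 41.3, 34.9 and 46.6 in those of IGF-NS and 36.7, 34.3 and 46 in those of PDGF-NS. The log2 differences from control were 0.98 ± 0.15 (adjusted p = 0.0019) and 0.91 ± 0.15 (adjusted p = 0.0017). Nfil3, whose product represses D-box genes, measured 22.1, 11.2 and 13.9 FPKM in the control libraries, 6.51, 4.33 and 4.53 in those of IGF-NS and 6.69, 41.4 and 33.2 in those of PDGF-NS. The first PDGF-NS library lay far below the other two. Nfil3 did not pass the test against control in either set (log2 -1.42, adjusted p = 0.081, and 0.47, adjusted p = 0.54), but was higher in PDGF-NS than in IGF-NS (log2 1.89, adjusted p = 0.039). That call was lost in 10 of 19 alternatives, among them leaving out control library 2 or 3, any 1 IGF-NS library, or PDGF-NS library 2 or 3 (adjusted p from 0.00041 to 0.15 over all alternatives). Without PDGF-NS library 1, Nfil3 passed against control in both sets, at -1.42 (adjusted p = 0.0046) and 1.24 (adjusted p = 0.011). Hlf, also of the family, did not reach the level tested.

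Nr1d1, the gene of REV-ERBα, rose in both treated sets. Its libraries gave 26, 23.2 and 24.2 FPKM in the control libraries, 37.1, 37 and 44.8 in those of IGF-NS and 49.9, 49.3 and 56.8 in those of PDGF-NS. No library of one set reached into the range of another, with control lowest and PDGF-NS highest. The log2 difference was 0.67 ± 0.12 in IGF-NS (adjusted p = 0.0042) and 1.05 ± 0.12 in PDGF-NS (adjusted p = 0.00018). PDGF-NS against IGF-NS gave 0.38 ± 0.12 and did not pass (adjusted p = 0.062). Nr1d1 overlaps the thyroid hormone receptor gene Thra in RefSeq, and whether the authors' counting used strand is not given in the sources used here, so reads of the shared stretch cannot be told apart. Thra, named here for its position, measured 37.6 ± 6.09 FPKM in the control libraries, 59.9 ± 11 in those of IGF-NS and 25.7 ± 2.33 in those of PDGF-NS. It was higher in IGF-NS (log2 0.65, adjusted p = 0.018) and lower in PDGF-NS (log2 -0.52, adjusted p = 0.038), so in PDGF-NS the overlapping genes moved in opposite directions. The Thra call in PDGF-NS was lost in 8 of 19 alternatives, including without control library 1 or 2, IGF-NS library 1 or any 1 PDGF-NS library (adjusted p up to 0.12), and that in IGF-NS without control library 3 or IGF-NS library 1 (adjusted p = 0.063 and 0.056).

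Nr1d2, the gene of REV-ERBβ, measured 13.1, 16.8 and 12.2 FPKM in the control libraries, 18.2, 23 and 20.3 in those of IGF-NS and 24.4, 23.1 and 27.5 in those of PDGF-NS. The order of the sets was that of Nr1d1, again with no overlap. Nr1d2 rose by a log2 difference of 0.52 ± 0.15 in IGF-NS (adjusted p = 0.03) and 0.80 ± 0.15 in PDGF-NS (adjusted p = 0.003). The IGF-NS call was lost with median-ratio scaling (log2 0.37, adjusted p = 0.11), with quantile scaling (log2 0.39, adjusted p = 0.093), in a fit of only these 2 sets (adjusted p = 0.07), and without control library 1 or 3 or IGF-NS library 2 or 3 (adjusted p from 0.052 to 0.099). The difference between the treated sets was 0.28, with a 95% interval from -0.06 to 0.61 (adjusted p = 0.26).

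Arntl, the gene of BMAL1 and a repression target of the REV-ERBs, fell in both treated sets. The control libraries gave 17.4, 12.7 and 13.6 FPKM, the IGF-NS libraries 10.5, 6.88 and 7.82, and the PDGF-NS libraries 7.61, 10.6 and 7.66. All treated libraries lay below all control libraries. The log2 difference was -0.74 ± 0.19 in IGF-NS (adjusted p = 0.019) and -0.70 ± 0.19 in PDGF-NS (adjusted p = 0.019). Each call depended on single libraries. The IGF-NS call was lost without the first control library (log2 -0.61, adjusted p = 0.055) or the second IGF-NS library (log2 -0.62, adjusted p = 0.067). The PDGF-NS call was lost without the first control library (log2 -0.57, adjusted p = 0.059) or PDGF-NS library 1 or 3 (adjusted p = 0.068 and 0.077). Between the treated sets Arntl differed by 0.04, with a 95% interval from -0.38 to 0.46.

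Clock, whose product is the partner of BMAL1, did not pass the test in any comparison. It measured 2.95, 4.39 and 3.8 FPKM in the control libraries, 4.27, 3.81 and 3.72 in those of IGF-NS and 3.2, 3.59 and 3.2 in those of PDGF-NS. The log2 difference from control was 0.08 in IGF-NS, with a 95% interval from -0.27 to 0.43, and -0.11 in PDGF-NS, with an interval from -0.46 to 0.24. All 3 PDGF-NS libraries lay just below the IGF-NS libraries, at a log2 difference of -0.19 (adjusted p = 0.48). Npas2, a paralogue of Clock that can also pair with BMAL1, differed between all 3 sets. It measured 3.07, 1.67 and 2.16 FPKM in the control libraries, 0.59, 0.432 and 0.385 in those of IGF-NS and 5.23, 7.98 and 5.26 in those of PDGF-NS, with no overlap between sets. Npas2 fell in IGF-NS (log2 -1.15 ± 0.21, adjusted p = 0.0044) and rose in PDGF-NS (log2 1.12 ± 0.21, adjusted p = 0.0033). PDGF-NS against IGF-NS gave a log2 difference of 2.26 (adjusted p = 1e-04).

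Per3, a member of the Period repressor family, rose in IGF-NS only among the comparisons with control, and the treated sets differed. It measured 8.8, 9.07 and 5.54 FPKM in the control libraries, 18, 17.6 and 19.5 in those of IGF-NS and 8.4, 7.15 and 9.9 in those of PDGF-NS. The IGF-NS libraries stood above all others, and the control and PDGF-NS libraries overlapped. The log2 difference was 1.16 ± 0.18 in IGF-NS against control (adjusted p = 0.002) and -1.04 ± 0.18 in PDGF-NS against IGF-NS (adjusted p = 0.0039). PDGF-NS against control gave 0.12, with a 95% interval from -0.29 to 0.54 (adjusted p = 0.64), a difference that was -0.08 without control library 3, -0.01 with quantile scaling and 0 with a common sum.

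Per2, a main partner of the CRY repressors, measured 9.57, 9.36 and 10.1 FPKM in the control libraries, 9.48, 10.9 and 13 in those of IGF-NS and 7.01, 7.65 and 7.03 in those of PDGF-NS. The PDGF-NS libraries lay below all others. Per2 was lower in PDGF-NS than in IGF-NS by a log2 difference of -0.55 ± 0.14 (adjusted p = 0.022), a call lost without IGF-NS library 2 or 3 or any 1 PDGF-NS library (adjusted p from 0.052 to 0.087). Against control the PDGF-NS difference was -0.38 ± 0.14 and did not pass (adjusted p = 0.06), though it passed with median-ratio scaling (log2 -0.50, adjusted p = 0.021). Per1, the Period gene that responds fastest to many stimuli, measured 9.66, 5.77 and 6.62 FPKM in the control libraries, 6.11, 4.63 and 8.08 in those of IGF-NS and 5.35, 9.46 and 7.37 in those of PDGF-NS. The 3 sets of Per1 overlapped, with log2 intervals from -0.75 to 0.35 in IGF-NS and from -0.55 to 0.56 in PDGF-NS against control, and from -0.35 to 0.75 between the treated sets.

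Cry1 and Cry2 encode the cryptochromes, which repress CLOCK and BMAL1. Cry1 measured 13.8, 10.6 and 10.7 FPKM in the control libraries, 6.61, 6.58 and 9.07 in those of IGF-NS and 4.59, 7.01 and 7.57 in those of PDGF-NS. All treated libraries lay below all control libraries. Cry1 fell in PDGF-NS (log2 -0.79 ± 0.20, adjusted p = 0.013). In IGF-NS the difference of -0.60 ± 0.20 did not pass (adjusted p = 0.053), and it passed with median-ratio scaling (log2 -0.74, adjusted p = 0.02). Between the treated sets Cry1 differed by -0.20, with a 95% interval from -0.64 to 0.24. Cry2 gave 25.9, 21.4 and 20.1 FPKM in the control libraries, 16.9, 15.4 and 21.6 in those of IGF-NS and 20.7, 18.2 and 18.4 in those of PDGF-NS. The Cry2 sets overlapped, with log2 differences from control of -0.31 (adjusted p = 0.17) and -0.22 (adjusted p = 0.31), and of 0.09 between the treated sets (adjusted p = 0.74).

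**Figure D2:**
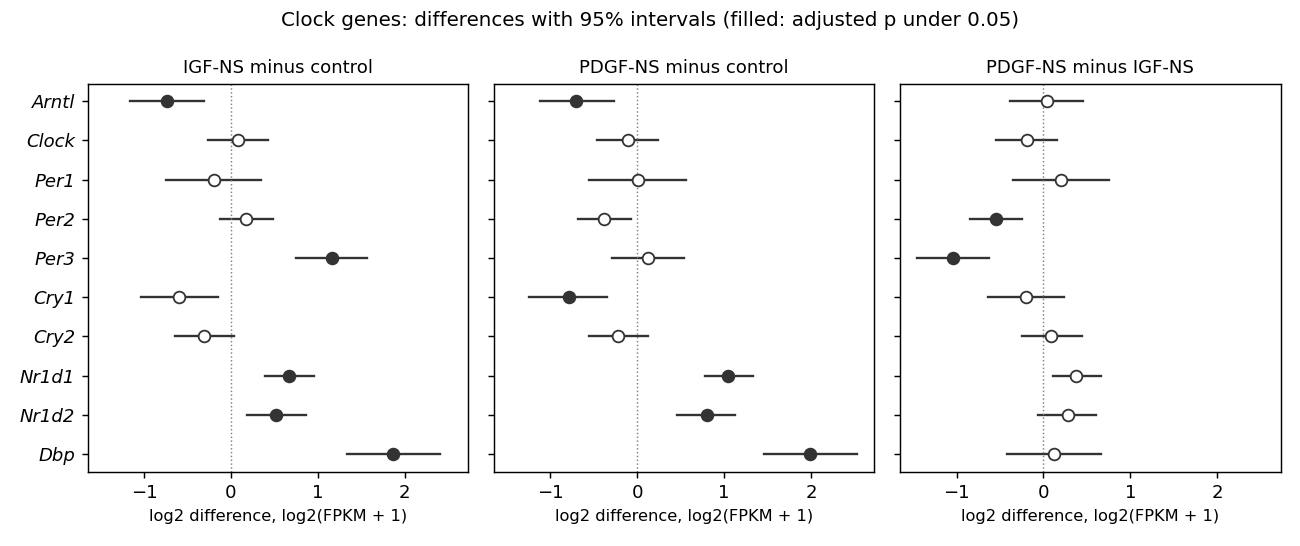
Log2 difference, on the log2(FPKM + 1) scale, of each clock gene in the 3 comparisons, with 95% intervals from limma. Dbp, Nr1d1 and Nr1d2 lay above 0 and Arntl below 0 in both comparisons with control, and Per3 stood at 1.16 in IGF-NS but 0.12 in PDGF-NS.

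FPKM is scaled by transcript length, so levels can be set beside each other within a set. In control, Nr1d1 (24.5 FPKM) and Cry2 (22.5) were highest and overlapped. By mean, Dbp, Arntl, Nr1d2 and Cry1 followed, each overlapping its neighbour, then Per2, Per3 and Per1, and Clock was lowest at 3.71. Per2 (9.36 to 10.1 FPKM) lay apart from Cry1 and Per3, its neighbours in this order. It overlapped Dbp (9.55 to 19.3) and Per1 (5.77 to 9.66). In IGF-NS, Dbp was highest and stood apart from Nr1d1, which stood apart from Nr1d2, Per3 and Cry2. In PDGF-NS, Dbp and Nr1d1 overlapped at the top, and Arntl, Per3, Per1, Per2 and Cry1 each overlapped its neighbour. Clock was the lowest of the 10 in every set. Among all genes tested, Dbp moved from percentile 57.4 in control to 85.4 in IGF-NS and 86.2 in PDGF-NS, and Arntl from 55.1 to 36.3 and 37.7. Per3 stood at percentile 37.7 in control, 59.2 in IGF-NS and 37.2 in PDGF-NS.

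Ratios within a library do not depend on a scaling factor for that library, and they describe the same values. The ratio of Nr1d1 to Arntl was 1.5, 1.83 and 1.78 in the control libraries, 3.55, 5.38 and 5.74 in those of IGF-NS and 6.55, 4.65 and 7.42 in those of PDGF-NS. Every treated library lay above every control library. The ratio of Dbp to Arntl was 1.07, 1.52 and 0.7 in the control libraries, 5.5, 8.37 and 7.54 in those of IGF-NS and 9.83, 4.73 and 8.84 in those of PDGF-NS, with the same separation. The ratio of Per3 to Per2 was 0.92, 0.97 and 0.546 in the control libraries, 1.9, 1.61 and 1.49 in those of IGF-NS and 1.2, 0.935 and 1.41 in those of PDGF-NS, where PDGF-NS overlapped control and lay below IGF-NS.

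**Figure D3:**
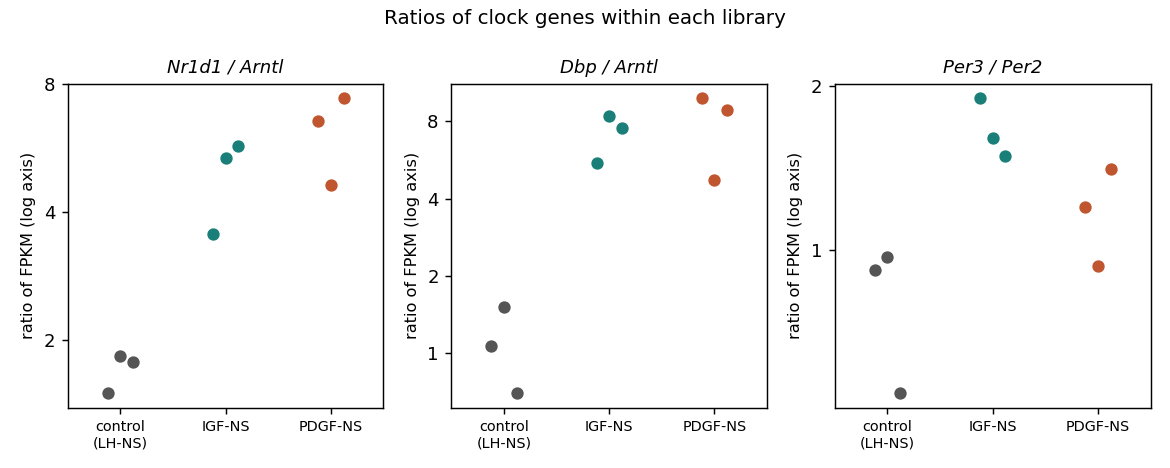
Ratios of FPKM between clock genes within each library, on a log axis, 1 point per library. The ratio of Nr1d1 to Arntl was at most 1.83 in control and at least 3.55 in every treated library.

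Of 11 genes that act on the loop beside the members, 9 were in the table and 7 were tested. In IGF-NS against control 1 rose and 1 fell, in PDGF-NS against control 3 rose and 1 fell, and between the treated sets 2 were higher and 1 lower in PDGF-NS. The median log2 differences were -0.09, 0.09 and -0.2. Over all genes tested, the shares called higher and lower were 17.4% and 7.48%, 20.7% and 10.2%, and 8.33% and 7.55% in these comparisons. Ciart, a repressor of CLOCK and BMAL1 whose window held the 3 E-boxes printed above, measured 2.64, 4.05 and 1.83 FPKM in the control libraries, 9.98, 9.23 and 9.86 in those of IGF-NS and 3.86, 6.35 and 5.94 in those of PDGF-NS. It rose in IGF-NS (log2 1.52, adjusted p = 0.0014) and in PDGF-NS (log2 0.75, adjusted p = 0.03), where 1 control library overlapped the PDGF-NS range and the call was lost in 8 of 19 alternatives, among them leaving out control library 1 or 3 or PDGF-NS library 2 or 3 (adjusted p up to 0.11). Ciart was the 1 gene called lower in PDGF-NS than in IGF-NS (log2 -0.77, adjusted p = 0.046), and that call was lost in 10 of 19 alternatives, among them the fit without any 1 library of either treated set (adjusted p up to 0.15). Bhlhe40, an E-box repressor, measured 46.2, 60.5 and 56.5 FPKM in the control libraries, 39.9, 47.4 and 51.4 in those of IGF-NS and 178, 141 and 188 in those of PDGF-NS. It rose in PDGF-NS (log2 1.62, adjusted p = 6.7e-05) and not in IGF-NS (log2 -0.23, adjusted p = 0.33), and the treated sets differed (log2 1.85, adjusted p = 6.1e-05). Timeless fell in PDGF-NS (log2 -0.61, adjusted p = 0.037), a call lost in 8 of 18 alternatives, among them the fits without control library 1, control library 2, IGF-NS library 1 or any 1 PDGF-NS library (adjusted p up to 0.12). Rora, an activator of Arntl, did not pass in any comparison (adjusted p = 0.82, 0.81 and 0.69), nor did Bhlhe41 (adjusted p = 0.39, 0.98 and 0.44).

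**Figure D4:**
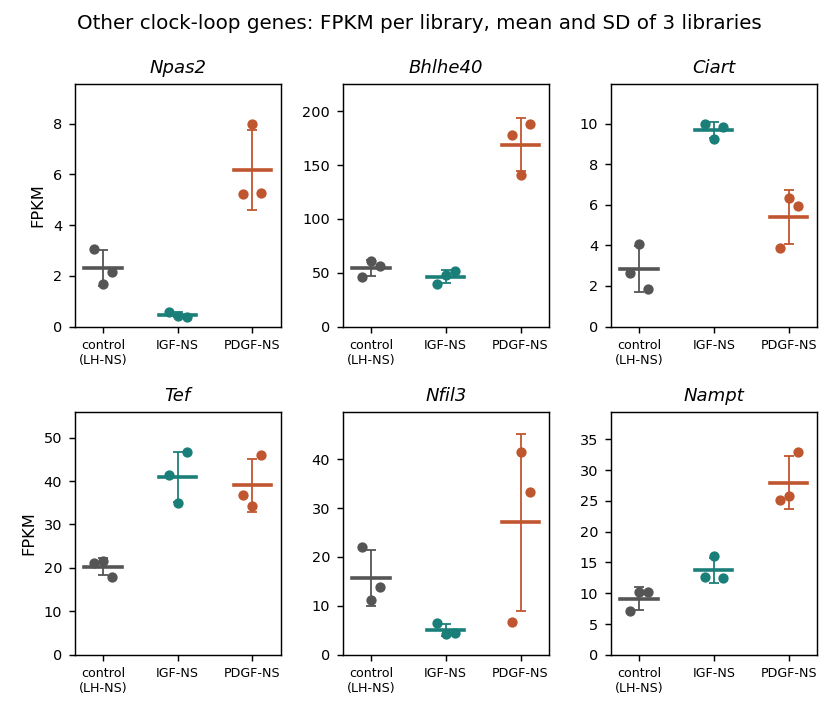
FPKM of clock-related genes outside the 10 members in the 9 libraries, 1 point per library with the set mean (line) and SD (bar). Npas2 was at most 0.59 FPKM in the 3 IGF-NS libraries and at 5.23 or more in the 3 PDGF-NS libraries.

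Of 24 genes listed around clock protein turnover, which also include cofactors and enzymes such as Ncor1 and Nampt, 22 were tested. In IGF-NS against control 4 rose and 1 fell, in PDGF-NS 4 rose and 2 fell, and between the treated sets 1 was higher and 3 lower in PDGF-NS. The median log2 differences were 0.1, -0.07 and -0.12. Over all genes tested, 17.4%, 20.7% and 8.33% were called higher in these comparisons, and 7.48%, 10.2% and 7.55% lower. The 4 higher in IGF-NS became 2 without IGF-NS library 1 or 2, the 2 lower in PDGF-NS against control became 1 without any 1 library, and the 3 lower between the treated sets became 1 without IGF-NS library 2 or PDGF-NS library 1 or 3. Prkaa2, a catalytic subunit of AMPK, which marks CRY for degradation, measured 16.6, 11.1 and 15.5 FPKM in the control libraries, 4.38, 4.87 and 4.15 in those of IGF-NS and 2.19, 2.08 and 2.49 in those of PDGF-NS. It fell in both sets (log2 -1.48, adjusted p = 3e-04, and -2.23, adjusted p = 1.4e-05). Nampt, an enzyme of NAD synthesis, rose in PDGF-NS (log2 1.52, adjusted p = 0.00017) and in IGF-NS (log2 0.55, adjusted p = 0.045), where the call was lost in 14 of 19 alternatives (adjusted p up to 0.14). Fbxl21, a ubiquitin ligase subunit for CRY, rose in both sets from a low level (log2 1.09, adjusted p = 0.0068, and 1.57, adjusted p = 0.00057). The casein kinase genes Csnk1d and Csnk1e, whose products phosphorylate PER, did not pass against control (adjusted p = 0.96 and 0.9 in IGF-NS, 0.35 and 0.092 in PDGF-NS). All PDGF-NS libraries of Csnk1e lay below control (log2 -0.36). That difference passed with median-ratio scaling (log2 -0.50, adjusted p = 0.027), a common sum (adjusted p = 0.024) and quantile scaling (adjusted p = 0.032).

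Of 12 genes that follow the clock in many tissues, 11 were tested, with 2 higher and 3 lower in IGF-NS, 5 higher and 2 lower in PDGF-NS, and 3 higher and 1 lower in PDGF-NS against IGF-NS. Their median log2 differences were 0.36, 0.22 and 0.46. Over all genes tested, 17.4%, 20.7% and 8.33% were called higher in these comparisons, and 7.48%, 10.2% and 7.55% lower. The 2 higher in IGF-NS were Nampt and Wee1 (log2 0.83, adjusted p = 0.018), and both were lost without IGF-NS library 2. The count was 1 without IGF-NS library 1, control library 2 or 3, or any 1 PDGF-NS library. Tspan4, among the 3 lower (log2 -0.78, adjusted p = 0.032), was lost in 7 of 19 alternatives. Its symbol had 2 entries, and only the one with the higher mean was used. Between the treated sets the 3 higher became 5 without IGF-NS library 3. The 1 lower became 0 without IGF-NS library 2 or 3 or PDGF-NS library 1 or 3, and 2 without control library 1. A further list of 18 genes held Per inducers and both regulators and targets of hormone and cAMP responses. Of these, 17 were tested, with 4 higher and 2 lower in IGF-NS, 6 higher and 2 lower in PDGF-NS, and 4 higher and 1 lower between the treated sets. Their medians were 0.25, 0.47 and 0.18, and the shares over all genes are those just given. The 2 lower against control were Klf9 and Srf in both sets. Srf gave log2 -1.72 in IGF-NS (adjusted p = 0.00079) and -1.56 in PDGF-NS (adjusted p = 0.00074). The 4 higher between the treated sets included Fos (log2 2.17, adjusted p = 0.05 after rounding), lost in 12 of 19 alternatives, and Crem (log2 1.34, adjusted p = 0.041), lost in 6. They became 2 without IGF-NS library 1 or 3 or PDGF-NS library 3, and the 1 lower became 2 without control library 1 or IGF-NS library 2. Hsd11b1, which regenerates active glucocorticoid, rose in PDGF-NS from 14.3, 20.8 and 18.9 FPKM in control to 821, 827 and 908 (log2 5.5, adjusted p = 4.3e-07), and gave 24.5, 20.3 and 14.5 in IGF-NS. Sgk1, a glucocorticoid-responsive kinase gene, rose in IGF-NS (log2 2.32, adjusted p = 7.5e-05) and gave 0.47 in PDGF-NS (adjusted p = 0.11). Other genes of this list differed from Sgk1. In PDGF-NS, Fkbp5 (log2 1.32, adjusted p = 0.00098) and Tsc22d3 (log2 0.81, adjusted p = 0.01) rose and Klf9 fell (log2 -0.62, adjusted p = 0.011). In IGF-NS, Fkbp5 gave 0.73 (adjusted p = 0.027, lost in 7 of 19 alternatives), Tsc22d3 0.36 (adjusted p = 0.21) and Klf9 -0.79 (adjusted p = 0.0047). A glucocorticoid response was not tested.

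The genes with patterns most like those of the 3 members with the widest range of set means were found by the root mean square difference of centred log2(FPKM + 1) over the 9 libraries. The search and its medians left out the 768 tested genes without a symbol. For Dbp the nearest genes were Csdc2 (0.17), Fads1 (0.24) and ABCC4 (0.24), where the median over the tested genes with a symbol was 0.93. For Per3 they were DZIP1 (0.18), Pygb (0.19) and Ttyh3 (0.19), with a median of 0.59. For Nr1d1 they were Zfp277 (0.08), Tspan31 (0.08) and Ipp (0.12), with a median of 0.48. Csdc2 averaged 3.54 FPKM in the control libraries, 15.6 in those of IGF-NS and 17.4 in those of PDGF-NS. These are descriptions over 9 libraries in 3 sets.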

How the data were processed

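RNA was extracted with Trizol and made into libraries with a Lexogen SENSE mRNA kit, per the labels' protocols. The authors deposited 1 table of FPKM values, made with GSNAP and Cufflinks per the submitters' processing notes; versions, genome build, annotation and strand setting are not given in the sources that were used. Read depth is unknown, and FPKM sums per library ran from 616765 to 748000. The value 999999999 in 10 cells of 4 genes was left out, as were 2 duplicate rows at 0. Genes averaging 1 FPKM or more were tested with limma 3.58.1 in R 4.3.3 (eBayes with a mean trend) on log2(FPKM + 1), in 1 fit of all 9 libraries, two-sided, with Benjamini-Hochberg adjustment over 11376 genes and a threshold of 0.05. The fit was tested on simulated data. All members were named. From other lists, a set of clock partners and up to 4 called genes per list and comparison with the largest change were eligible. Tsc22d3 was given in addition. The members and lists were chosen with earlier results of these data known. Tspan4 and Nr3c1 each had 2 entries, and the entry with the higher mean over the 9 libraries was used. Alternatives were other pseudocounts, filters and scalings, fits of 2 sets, a replicate block, and leaving out each library.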

Additional observations from a re-analysis of the deposited data

How the results depend on the processing

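Of 30 results on single clock genes, 12 were called, 8 of these in every one of the 19 alternatives run, and 0 called results changed sign. The other 4 calls were Arntl in both comparisons with control, Nr1d2 in IGF-NS and Per2 between the treated sets. A further 3 uncalled results passed in some alternatives (Cry1 in IGF-NS, Per2 in PDGF-NS and Nr1d1 between the treated sets), and 6 uncalled results changed sign (Clock in IGF-NS, Per1 and Per3 in PDGF-NS, and Arntl, Cry2 and Dbp between the treated sets). Leaving out 1 library gave 1752 to 2957 genes called in IGF-NS against control (2827 with all libraries) and 1009 to 2152 between the treated sets (1807 with all). Clock genes called then ranged from 3 to 6 in IGF-NS against control, with 3 without the first control or the second IGF-NS library, and from 1 to 2 between the treated sets, with 1 without the second IGF-NS library or any 1 PDGF-NS library. With the replicate number as a block (replicate block), 2457, 3221 and 1530 genes and 5, 5 and 2 clock genes were called. The deviations of same-numbered libraries from their set means correlated at r from -0.28 to 0.25, above 0.1 in 2 of 9 pairs. With 3 libraries per set, these values cannot decide whether the numbers pair samples. The depth behind each value is unknown.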
